A study of Homo sapiens with 12 samples.

Results

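The genes that make and break down hyaluronan were followed in a pair of established human cell lines of colorectal cancer, SW480 and HCT116, with and without overexpression of USP51, a ubiquitin-specific protease. The 7 genes were chosen by name, for their function, after the mean TPM values of these same data had shown HAS3 to differ with USP51, and all 7 had rows among the 17818 gene identifiers of the deposited table. The list holds the synthase genes HAS2 and HAS3, the hyaluronidase genes HYAL1, HYAL2 and HYAL3, and CEMIP and CEMIP2. The labels describe 12 libraries of total RNA, 3 for each of 4 groups. Both control groups have the genotype NC and the treatment Vector, and both other groups carry USP51-OE under both headings. All cells were grown in serum-containing DMEM with no other treatment. Which promoter drives the construct, and whether the lines are clones or pools, are not stated in the sources.

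Only the authors' mean of each group could be used, since the columns of single libraries are named by codes that the labels do not hold. There is thus no replicate spread, no standard deviation and no test for any value here, and every difference is between 2 means. The means are named by line with a letter C or E, read as control and USP51 overexpression, and every direction with USP51 rests on that reading. USP51 itself was at 0.513 TPM (a length-scaled abundance with the same total in each group) in SW480 NC and 25.7 TPM in SW480 USP51, and at 0 TPM in HCT116 NC and 40.8 TPM in HCT116 USP51. The means summed to between 15506686 and 15920306 estimated counts per group. Of 7 colorectal epithelial markers, 6 were at or above 1 TPM in each group, with EPCAM at 382 to 411 TPM. KRT20 was below 1 TPM in both SW480 groups and VIL1 in both HCT116 groups. Among markers of other cells, 1 of 5 fibroblast markers, COL1A1 (1.33 to 15.1 TPM), and 1 of 3 leukocyte markers, CD68 (3.98 to 6.96 TPM), were at or above 1 TPM in each group, and 0 of 2 endothelial markers were. The fibroblast markers DCN and COL1A2 were at or below 0.02 TPM and the leukocyte marker PTPRC at or below 0.0333 TPM in all 4 groups. The summed level was 1.51 to 15.4 TPM for the fibroblast list, 4.15 to 6.96 TPM for the leukocyte list and 0.12 to 0.303 TPM for the endothelial list. In bulk RNA, fewer cells that express a gene and less RNA per cell cannot be told apart.

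Hyaluronan is a very long, unbranched sugar polymer of the extracellular matrix. Hyaluronan synthases sit in the plasma membrane, join UDP-glucuronic acid and UDP-N-acetylglucosamine in alternation, and push the growing chain out of the cell. HYAL2, at the cell surface, and HYAL1, in the lysosome, cut the chain to shorter pieces, while CEMIP and CEMIP2 are needed for its breakdown outside or at the surface of many cells. In tumours of the colon, hyaluronan and its receptor CD44 have long been studied for their part in adhesion and migration.

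With all transcript rows summed, HAS3 was the more abundant synthase gene in all 4 groups, and among members at or above 1 TPM it differed most with USP51 in both lines on log2(TPM + 1). It was at 109 TPM in HCT116 NC and 56.1 TPM in HCT116 USP51, but at 5.47 TPM in SW480 NC and 8.65 TPM in SW480 USP51. The order of the levels was therefore HCT116 NC, HCT116 USP51, SW480 USP51 and SW480 NC. The gene lies on the plus strand of chromosome 16, from 69083484 to 69118719 (NCBI gene 3038, RefSeq on GRCh38.p14). HAS3 thus ranked above 92.6% of all genes in HCT116 NC and above 46.5% in SW480 NC.

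Stretches of 300 bases around a RefSeq start site (250 before it and 50 from it on) are shown for HAS3, CEMIP and CEMIP2. With HYAL1, these were the 4 members whose differences with USP51 moved most when only curated (NM_) transcript rows were summed. HAS2 and HYAL3 have curated rows alone, so their values could not move in that setting. Capitals mark matches to ACGTG or GCGTG on either strand, the core letters bound by hypoxia-inducible factors. HAS3 is at chr16:69107290-69107589 (plus strand), CEMIP at chr15:80779120-80779419 (plus strand) and CEMIP2 at chr9:71768464-71768763 (minus strand), all GRCh38.p14 and printed 5′ to 3′ on the gene's strand.
HAS3: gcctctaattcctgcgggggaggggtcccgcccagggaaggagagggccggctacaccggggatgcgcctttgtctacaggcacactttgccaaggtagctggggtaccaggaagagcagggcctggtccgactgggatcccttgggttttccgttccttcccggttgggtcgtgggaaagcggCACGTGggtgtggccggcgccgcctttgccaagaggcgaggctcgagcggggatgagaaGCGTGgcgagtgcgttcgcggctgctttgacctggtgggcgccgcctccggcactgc
CEMIP: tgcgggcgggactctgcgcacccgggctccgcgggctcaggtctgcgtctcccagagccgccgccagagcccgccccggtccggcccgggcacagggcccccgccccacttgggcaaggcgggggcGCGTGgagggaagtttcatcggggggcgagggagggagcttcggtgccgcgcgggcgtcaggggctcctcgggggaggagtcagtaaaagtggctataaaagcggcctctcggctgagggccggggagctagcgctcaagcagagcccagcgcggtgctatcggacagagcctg
CEMIP2: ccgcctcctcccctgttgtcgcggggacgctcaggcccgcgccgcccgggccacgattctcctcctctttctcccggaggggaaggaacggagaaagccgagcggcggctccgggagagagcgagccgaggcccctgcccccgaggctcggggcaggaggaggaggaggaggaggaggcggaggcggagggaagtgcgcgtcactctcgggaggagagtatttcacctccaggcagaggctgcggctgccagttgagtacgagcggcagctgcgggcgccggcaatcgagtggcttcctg
The HAS3 stretch held ACGTG on both strands at positions 185 and 186, counted from 1 at the 5′ end, where the matches overlap as the palindrome CACGTG, and GCGTG at position 244. ACGTG was present in 21.4% of the 35116 stretches of this length in the RefSeq table, GCGTG in 36.5% and CACGTG in 7.26%. CEMIP held GCGTG at position 127 and a TATAAA match at position 221, letters found on either strand of 11.5% of all stretches. CEMIP2 held neither ACGTG nor GCGTG in this window. Of the 6 members scanned, the other 5, among them HYAL1, HYAL2 and HYAL3, held at least 1 of these cores. HYAL3 was scanned over 2 stretches, of which the second held neither core. The share of all stretches with either core was not counted, so nothing is read from this number of members. The HAS3 start site shown, at base 69107540, is that of the curated transcript NM_005329 in GENCODE 29, whose row carried few counts (given below), so the printed stretch need not be the promoter in use in these cells.

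In HCT116 the HAS3 means were 4530 counts in NC and 2236 counts in USP51, a ratio of counts per total count of 0.504 (0.479 to 0.530). The values in parentheses are a 95% exact Clopper-Pearson interval, taken as if each mean were 1 library's count, with no error but that of counting. On log2(TPM + 1), a scale that understates differences of low genes, the difference was -0.95. Of the 12393 genes with at least 1 TPM in either group, 6 lay at or below that value, HAS3 included. Of the 6 members with at least 1 TPM in either HCT116 group, HAS3 was the one beyond 1.5-fold on log2(TPM + 1). CEMIP2 was just past 1.5-fold higher as a plain ratio of TPM (12.6 over 8.38), and HAS2, under 1 TPM, was past it as well on that ratio (0.167 over 0.0567). This fold is a cut on size alone. Of all genes, 0.145% lay at least 1.5-fold lower in this comparison and 1.96% at least 1.5-fold higher, and since HAS3 helped to choose the list, nothing is read from that count. The fibroblast marker COL1A1 was at 9.95 TPM in HCT116 NC and 15.1 TPM in HCT116 USP51, in the opposite direction to HAS3, and made up nearly all of the list's sum of 10.1 and 15.4 TPM. The other 4 fibroblast markers in the table were at or below 0.263 TPM in HCT116. The part of COL1A1-expressing cells in the HAS3 values was not tested.

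In SW480 the HAS3 means were 222 counts in NC and 370 counts in USP51, a count ratio of 1.64 (1.38 to 1.94) and a difference of 0.58 on log2(TPM + 1). That lay just short of 1.5-fold on that scale, with 68 of 12175 genes at or above it. The difference between the lines, as the log2 ratio in HCT116 minus that in SW480, was -1.52, with 5 of the 11332 genes measured in both at or below it, HAS3 included. Because HAS3 had been seen to differ with USP51 before the list was made, nothing is read from its ranks among all genes with USP51. The direction in SW480 depended on which rows were summed, since the log2 ratio was -0.32 over curated transcript rows alone. Of the 6 epithelial markers measured in SW480, 4 lay above NC with USP51 and 2 below on log2(TPM + 1). VIL1 had the largest difference, at 12.5 TPM in USP51 against 7.55 TPM in NC (count ratio 1.70, 1.52 to 1.91). CDH1 (7.19 against 9.40 TPM) and CDX2 (25.1 against 29.1 TPM) were lower. The sum over the 7 epithelial markers was 10193 TPM in USP51 and 9566 TPM in NC, most of it KRT8 and KRT18. The part of any of these markers in the HAS3 values was not tested.

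HAS3 had 5 transcript rows, of which 3 were curated (NM_) and 2 predicted (XM_) by RefSeq. Most counts were assigned to the predicted rows, 83.8% of the gene's counts in SW480 NC, 94.7% in SW480 USP51, 93.2% in HCT116 NC and 93.7% in HCT116 USP51. XM_005255921.2 was at 2201 counts in HCT116 NC and 1163 in HCT116 USP51 (ratio 0.539, 0.502 to 0.579). XM_011523061.2 was at 2021 and 933 counts (ratio 0.471, 0.435 to 0.509). The curated NM_001199280.2 was at 291 and 139 counts (ratio 0.487, 0.395 to 0.599). These 3 rows thus lay lower by a similar factor in HCT116 USP51. NM_005329.2 was at 16.0 counts in HCT116 NC and at 0 in the other 3 groups, and NM_138612.3 at 1.60 counts or fewer in all 4.

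In SW480 the HAS3 rows did not lie in the same direction. XM_005255921.2 was at 117 counts in NC and 199 in USP51 (ratio 1.67, 1.32 to 2.12), and XM_011523061.2 at 69.3 and 152 (ratio 2.16, 1.62 to 2.92). NM_001199280.2 was at 35.0 and 18.1 counts (ratio 0.505, 0.269 to 0.916), lower with USP51 as in HCT116. The lengths implied by counts and FPKM were 3887 to 4010 bases for the 4 longer rows and 915 bases for NM_138612.3. Transcripts of the same gene can share much of their sequence, so the split of reads between them is less certain than their sum. This holds for the rows of the other genes too, and the counting intervals leave that error out.

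Other genes overlap HAS3 in the annotation. DERPC and CHTF8 share 710 bases with its 3′ end and TANGO6 shares 1699 bases with its far 5′ end, and the strand setting of the counting is not known here. CHTF8, on the minus strand in GENCODE 29, was at 70.0 TPM in HCT116 NC and 71.1 TPM in HCT116 USP51 (count ratio 0.997, 0.936 to 1.06). DERPC was at 75.4 and 65.9 TPM (ratio 0.815, 0.759 to 0.874), and TANGO6 at 7.14 and 5.85 TPM (ratio 0.809, 0.687 to 0.951). All 3 differed by less than HAS3 with USP51 in HCT116. In SW480 NC and USP51, CHTF8 was at 33.05 and 31.8 TPM, DERPC at 41.6 and 33.6 TPM and TANGO6 at 6.90 and 6.66 TPM. CHTF8 and DERPC were thus, like HAS3, lower in SW480 NC than in HCT116 NC. The part of their reads in the HAS3 values was not tested.

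**Figure D1:**
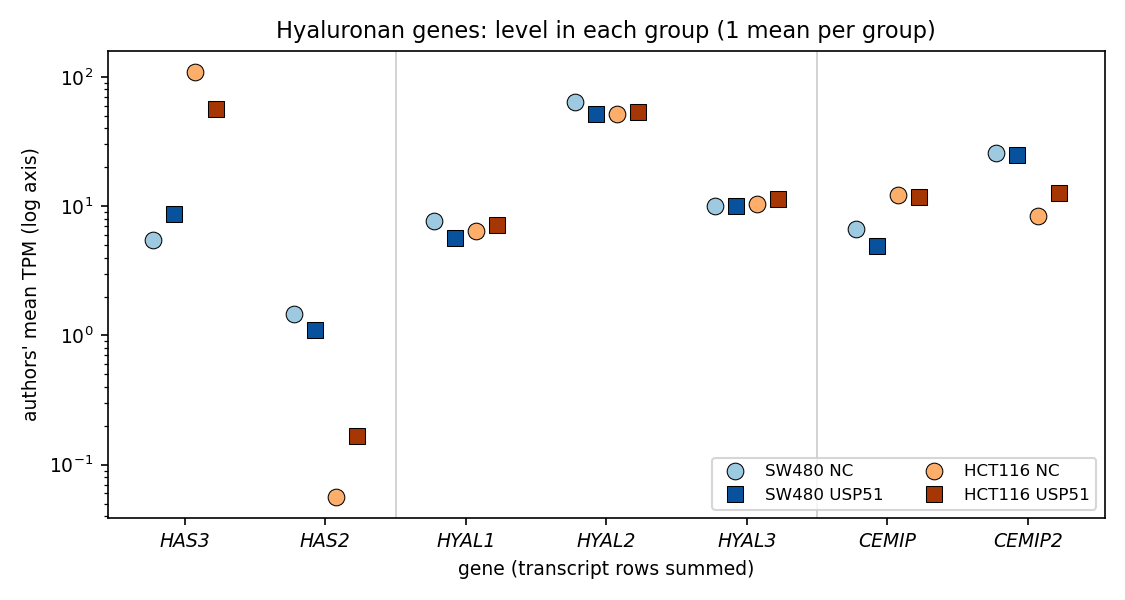
Level of each of the 7 hyaluronan genes on a log axis in the authors' mean TPM, with transcript rows summed and 1 point per group (circles NC, squares USP51, blue SW480, orange HCT116). HAS3 spans 5.47 to 109 TPM over the groups, while HYAL2 stays between 51.9 and 63.6 TPM.

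HAS2, the other synthase gene, was expressed at a low level in SW480 and was close to absent in HCT116. It was at 1.47 TPM in SW480 NC (61.0 counts) and 1.11 TPM in SW480 USP51 (48.3 counts), a ratio of 0.772 whose counting interval of 0.518 to 1.15 included 1. In HCT116 it was at 0.0567 TPM in NC (2.33 counts) and 0.167 TPM in USP51 (6.67 counts), and the ratio of 3.57 had an interval of 0.680 to 35.2. HAS2 did not reach 1 TPM in HCT116, so it is left out of the counts for the ratio in that line, and 6 of 7 members were measured there. HAS3 made up 78.9% of the summed synthase TPM in SW480 NC and 88.7% in SW480 USP51, and over 99% in both HCT116 groups (99.9% and 99.7%). In SW480 that order rests on the predicted rows, since curated HAS3 rows alone were at 0.967 TPM in NC and 0.57 TPM in USP51, below HAS2 in both groups. HAS1, the remaining synthase gene, was at 0.05 TPM or lower in all 4 groups.

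Summed over HAS2 and HAS3, synthase RNA stood at 109 TPM in HCT116 NC and 56.3 TPM in HCT116 USP51, against 89.5 and 96.7 TPM summed over the 5 breakdown genes. The ratio of these sums was 1.22 in HCT116 NC and 0.582 in HCT116 USP51. In SW480 it was 0.0611 in NC and 0.10 in USP51. Breakdown genes thus outweighed synthases in SW480 by far in both groups, and in HCT116, over all rows, the larger sum was that of the synthases in NC and that of the breakdown genes in USP51. Over curated rows alone the breakdown genes had the larger sum in HCT116 NC as well, at 76.1 TPM against 7.68 TPM for the synthases, and in HCT116 USP51, at 79.9 against 3.80 TPM. These are sums of RNA, and say nothing of enzyme activity.

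HYAL2, which encodes a hyaluronidase anchored at the cell surface, was the most abundant breakdown gene in all 4 groups. It lies on chromosome 3, from 50317808 to 50322745, in a cluster with HYAL1 (50299893 to 50312381) and HYAL3 (50292832 to 50299405). HYAL2 was at 63.6 TPM in SW480 NC and 51.9 TPM in SW480 USP51, a count ratio of 0.829 (0.762 to 0.901). In HCT116 it was at 52.0 and 53.9 TPM, with a count ratio of 1.0 (0.916 to 1.09). Its small log2 difference of 0.05 in HCT116 turned negative in CPM (counts scaled to depth but not length), where it lay between -0.02 and 0.00. By transcript, the SW480 difference was mainly that of NM_033158.4, at 572 counts in NC and 425 in USP51 (ratio 0.729, 0.642 to 0.828), while NM_003773.5 was at 564 and 535 counts (ratio 0.931, 0.826 to 1.05).

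HYAL1, the gene of the lysosomal hyaluronidase, was at 7.70 TPM in SW480 NC and 5.65 TPM in SW480 USP51, and at 6.38 and 7.15 TPM in the HCT116 groups. The count ratio was 0.797 (0.639 to 0.993) in SW480 and 1.06 (0.846 to 1.33) in HCT116. Of its 8 transcript rows, the predicted XM_011533669.2 held 83.4% to 95.8% of the counts, and its own ratio was 0.883 (0.70 to 1.11) in SW480. The remaining HYAL1 rows held 16.6 counts or fewer each. Over its curated rows alone the log2(TPM + 1) difference was -0.90 in SW480 and 0.53 in HCT116, against -0.39 and 0.14 over all rows, on 26.0 and 6.25 counts in SW480 and 14.3 and 27.3 in HCT116. HYAL3, their paralog, was with its rows summed the steadiest of the 7 across the groups. It was at 9.94 TPM in SW480 NC, 9.97 in SW480 USP51, 10.5 in HCT116 NC and 11.3 in HCT116 USP51. Its count ratios with USP51 were 1.04 (0.826 to 1.32) in SW480 and 1.10 (0.879 to 1.37) in HCT116. The HYAL3 rows did not lie in the same direction in HCT116. NM_003549.4 was at 61.9 counts in NC and 87.0 in USP51 (ratio 1.43, 1.02 to 2.02). NM_001200030.2 was at 44.0 and 20.4 counts (ratio 0.464, 0.259 to 0.804). NAA80 lies within the span of HYAL3, sharing 3004 bases, so reads of this pair may have been split between them. NAA80 was at 15.4, 14.6, 12.5 and 16.4 TPM in the same order of groups.

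**Figure D2:**
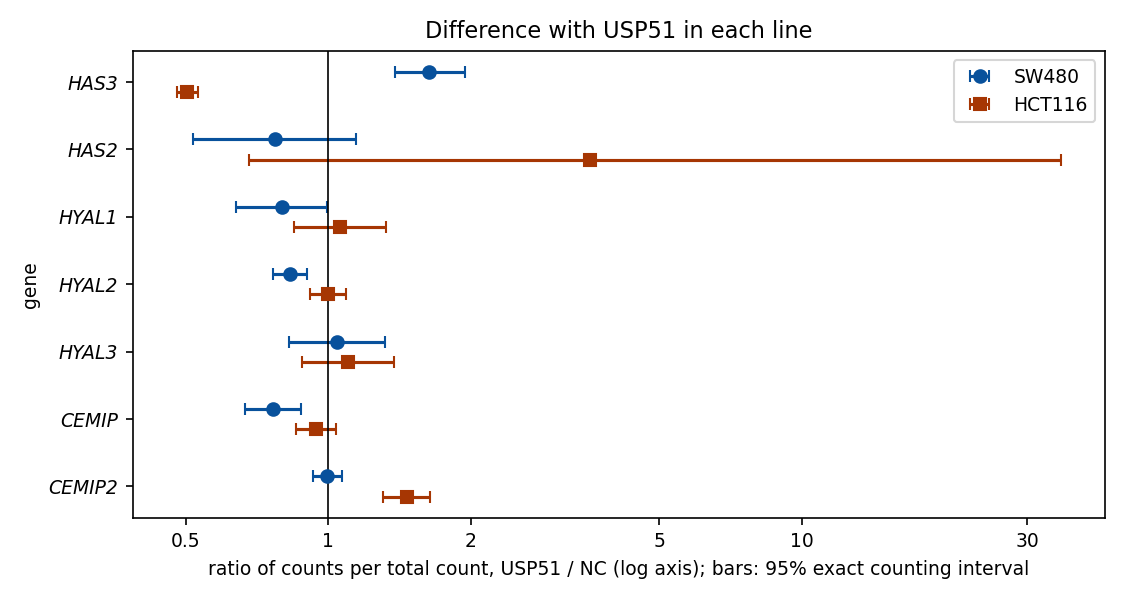
Ratio of counts per total count, USP51 over NC, on a log axis for each gene in SW480 (blue circles) and HCT116 (orange squares), with bars for the 95% exact counting interval. HAS3 sits at 1.64 in SW480 and 0.504 in HCT116, and CEMIP2 at 0.994 and 1.46.

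CEMIP2, formerly TMEM2, encodes a transmembrane protein of hyaluronan breakdown (chromosome 9, 71683366 to 71769466). In HCT116 it was the member that was higher with USP51 by the largest amount among those at or above 1 TPM. It was at 8.38 TPM in NC and 12.6 TPM in USP51, 514 and 737 counts, a ratio of 1.46 (1.31 to 1.64) and a log2(TPM + 1) difference of 0.53. In SW480 it was at 25.7 and 24.7 TPM, a ratio of 0.994 (0.926 to 1.07). The HCT116 difference was not shared by the main transcript: NM_013390.3 was at 367 counts in NC and 374 in USP51 (ratio 1.04, 0.898 to 1.20). In the estimated counts it lay in the predicted XM_005251869.4, at 88.3 and 239 counts (ratio 2.77, 2.16 to 3.58), and in NM_001135820.2, at 59.4 and 123 counts (ratio 2.13, 1.55 to 2.95). The implied lengths of those rows were 5681 and 5674 bases, against 5869 bases for NM_013390.3. As for HAS3, this split between rows is less certain than their sum.

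CEMIP encodes a secreted hyaluronan-binding protein needed for hyaluronan breakdown in fibroblasts of the skin (chromosome 15, 80779370 to 80951771). It was at 6.71 TPM in SW480 NC and 4.94 TPM in SW480 USP51, a count ratio of 0.764 (0.666 to 0.876), and at 12.2 and 11.8 TPM in HCT116 (ratio 0.943, 0.856 to 1.04). As for CEMIP2, the difference was not seen in the main row. NM_018689.3 was at 340 counts in SW480 NC and 367 in SW480 USP51 (ratio 1.06, 0.912 to 1.23). XM_024450001.1 was at 82.7 and 0 counts, and NM_001293304.2 at 62.1 and 9.64 counts (ratio 0.158, 0.0724 to 0.311). In HCT116 NM_001293304.2 was again lower with USP51, at 137 and 64.4 counts (ratio 0.477, 0.349 to 0.646), while XM_024450001.1 was at 51.1 and 66.3 counts. The split between the CEMIP rows is likewise less certain than their sum. MESD, which shares 5483 bases with the 3′ end of CEMIP, had 21.5 and 20.5 TPM in SW480 NC and USP51, and 30.9 and 29.7 TPM in HCT116.

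**Figure D3:**
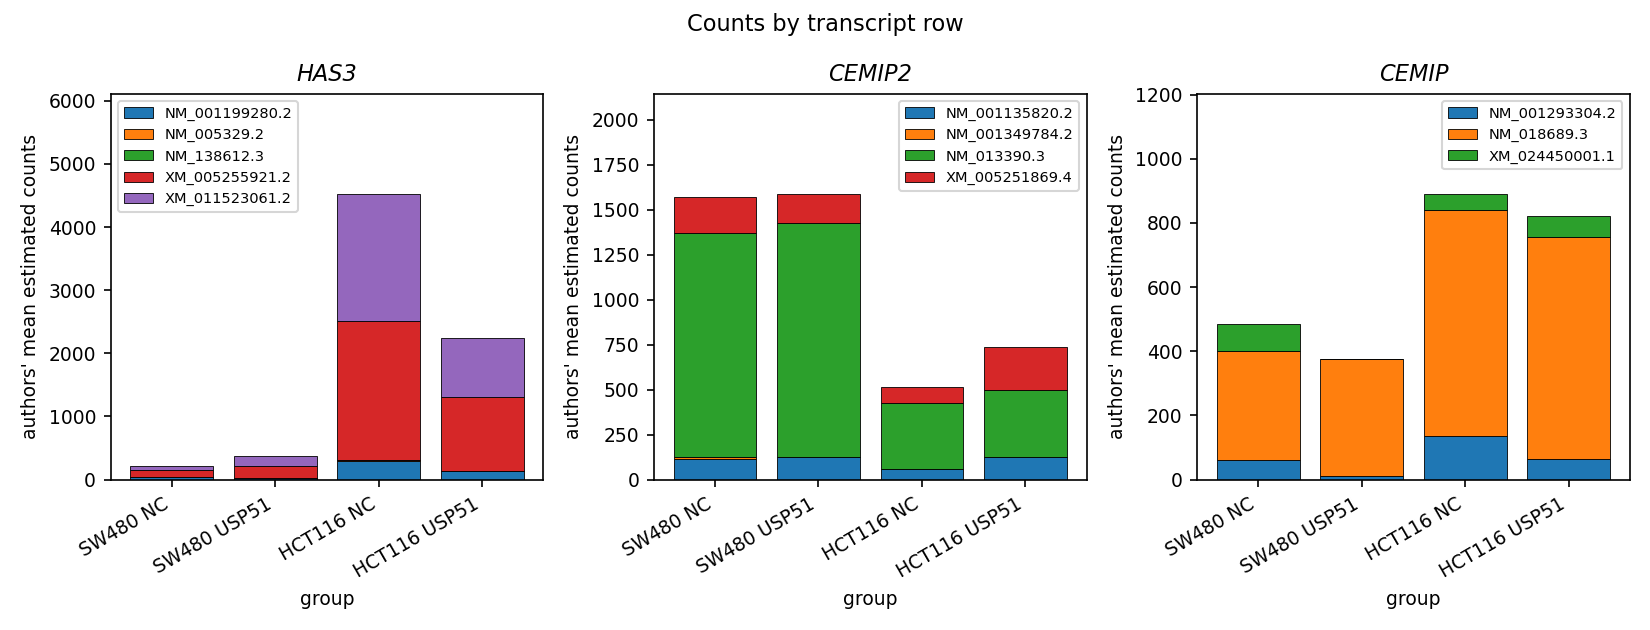
Authors' mean estimated counts of each transcript row of HAS3, CEMIP2 and CEMIP in the 4 groups, stacked to the gene's sum, with a separate linear axis from 0 for each gene. Every large HAS3 segment is smaller in HCT116 USP51 than in HCT116 NC, whereas NM_013390.3 of CEMIP2 keeps nearly its height in HCT116 (367 and 374 counts).

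Seen as a list, the members did not lie to one side. In SW480, 5 of 7 lay below NC and 2 above, with a median of -0.23 on log2(TPM + 1), where 61.1% of all 12175 genes lay below NC and the median of all genes was -0.04. CEMIP2 counts among the 5, but its sign turned with TMM or RLE factors, where it was 0.001 and 0.0071. No member was beyond 1.5-fold in SW480 on this scale, against 0.534% of all genes higher and 0.879% lower. With CPM in place of TPM the split of all genes beyond 1.5-fold in SW480 was 97 higher and 97 lower, against 65 and 107 in TPM. In HCT116, 4 of the 6 measured members lay above NC, with a median of 0.08, where 60.8% of all genes lay above and the median of all genes was 0.04. As for the difference between the lines, CEMIP2 (0.59) was the member at least 1.5-fold higher in HCT116 and HAS3 the one at least 1.5-fold lower, against 3.95% and 0.459% of the 11332 genes. Since HAS3 helped to choose the list, nothing is read from its place in this count. CEMIP2 lay just inside the limit and fell short of it with FPKM (0.49), with CPM under each scaling (0.51 to 0.54) and with curated rows (0.27). With curated rows the 1 member at least 1.5-fold higher was HYAL1 (1.42), and HAS3 (-0.57) fell short as well. Both comparisons with USP51 have controls of their own, but the difference between the lines is computed from all 4 groups.

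**Figure D4:**
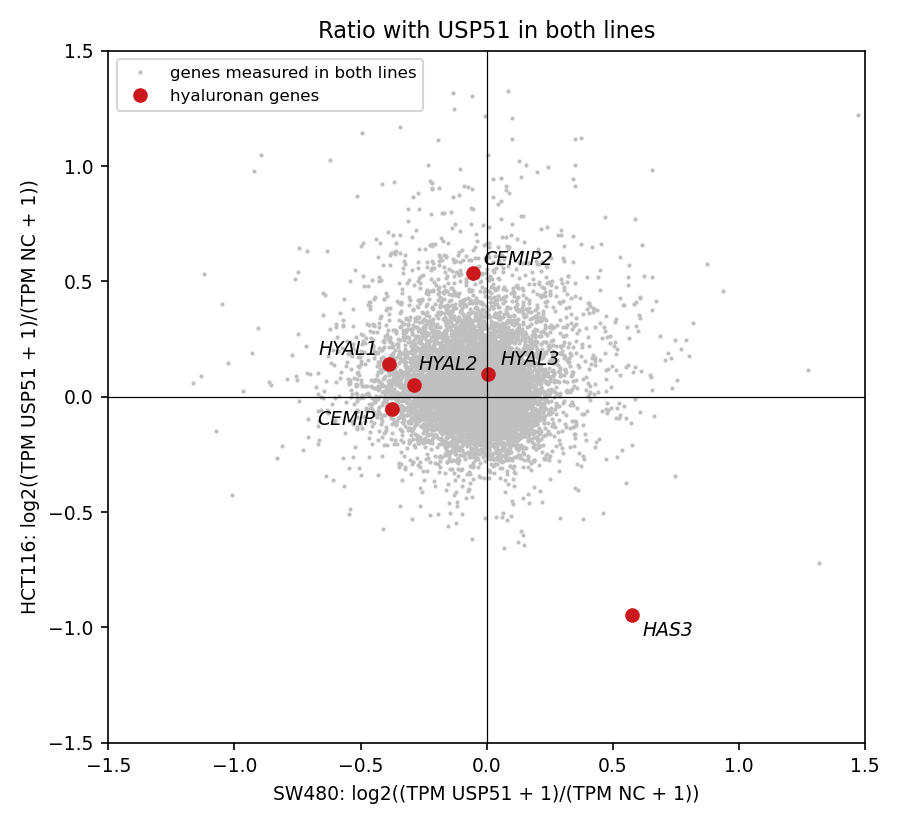
Log2 ratio of TPM + 1 with USP51 in SW480 (x axis) and HCT116 (y axis) for the 11332 genes measured in both (grey) and the 6 hyaluronan genes among them (red), with 8 genes outside the axes. HAS3 lies apart at 0.58 and -0.95, and HYAL1, HYAL2, HYAL3 and CEMIP lie between -0.39 and 0.14 on both axes.

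More genes lay beyond 1.5-fold between the control groups of the lines than within either line. Of the 7 members, 2 were at least 1.5-fold higher in HCT116 NC than in SW480 NC and 2 at least 1.5-fold lower on log2(TPM + 1), where 27% and 22.6% of 13033 genes were. HAS3 was higher in HCT116 NC by a count ratio of 20.1 (17.6 to 23.2), and 72 genes, HAS3 included, had a log2 ratio as high or higher. CEMIP was higher there as well, with a count ratio of 1.82 (1.63 to 2.03). CEMIP2 was lower, at 0.323 (0.292 to 0.357), and so was HAS2, at 0.0324 (0.00383 to 0.122). CEMIP2 made up 79.3% of the summed CEMIP and CEMIP2 TPM in SW480 NC and 40.7% in HCT116 NC. The HYAL genes differed little between the lines, with count ratios of 0.839 for HYAL1, 0.831 for HYAL2 and 1.06 for HYAL3.

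The genes around the pathway, taken from lists of 35 genes of which 33 were in the table, were compared on the same scale of log2(TPM + 1). In SW480 0 of 15 measured genes were beyond 1.5-fold, where 0.534% of all genes were higher and 0.879% lower. In HCT116 1 of 14 was, the versican gene VCAN, which was lower, where 1.96% of all genes were higher and 0.145% lower. Their medians were -0.04 in SW480 and 0.09 in HCT116, against -0.04 and 0.04 for all genes. In the difference between the lines 2 of 12 genes, HMMR (0.72) and HAPLN3 (0.76), were at least 1.5-fold higher in HCT116, where 3.95% of all genes were, and the median was 0.08 for the list and for all genes. The enzymes that make the sugar precursors were expressed in both lines. UGDH, which forms UDP-glucuronic acid, had 18.3 TPM in SW480 NC and 19.5 TPM in SW480 USP51, with 27.0 and 26.6 TPM for HCT116. UGP2, which supplies the UDP-glucose used by UGDH, had 120 and 112 TPM in the SW480 groups, against 47.1 and 49.6 TPM in those of HCT116. GFPT2, an enzyme of the first step of the hexosamine pathway, was picked out after its values were seen. It was at 4.69 and 6.10 TPM in SW480 (count ratio 1.34, 1.06 to 1.68) and at 9.80 and 14.2 TPM in HCT116 (1.43, 1.22 to 1.66).

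Of 8 hyaluronan receptor genes, CD44 and HMMR were well above the rest. CD44, the main cell-surface receptor, had 111 and 113 TPM in NC and USP51 cells of SW480, and 214 and 232 TPM in those of HCT116, with a count ratio of 1.07 in each line. HMMR, which also has a role in the mitotic spindle, was at 66.9 TPM in SW480 NC and 47.6 TPM in SW480 USP51 (ratio 0.734, 0.685 to 0.787), and at 47.4 and 55.9 TPM in HCT116 (ratio 1.16, 1.08 to 1.25). LYVE1, STAB1, STAB2 and LAYN were below 0.1 TPM in all groups.

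VCAN, the gene of a large proteoglycan that binds hyaluronan in the matrix, was at 17.6 TPM in HCT116 NC and 9.73 TPM in HCT116 USP51 (count ratio 0.537, 0.495 to 0.582). It was at 0 and 0.02 TPM in SW480. HAPLN3, a link protein gene picked out after its values were seen, was at 8.97 and 13.8 TPM in HCT116 (count ratio 1.51, 1.22 to 1.86, and a log2(TPM + 1) difference of 0.57, just short of 1.5-fold), and at 1.34 and 1.05 TPM in SW480. The lysosomal enzyme genes HEXA and GUSB, which remove sugars from the ends of short hyaluronan pieces, had log2 differences between -0.12 and 0.07 in both lines.

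**Figure D5:**
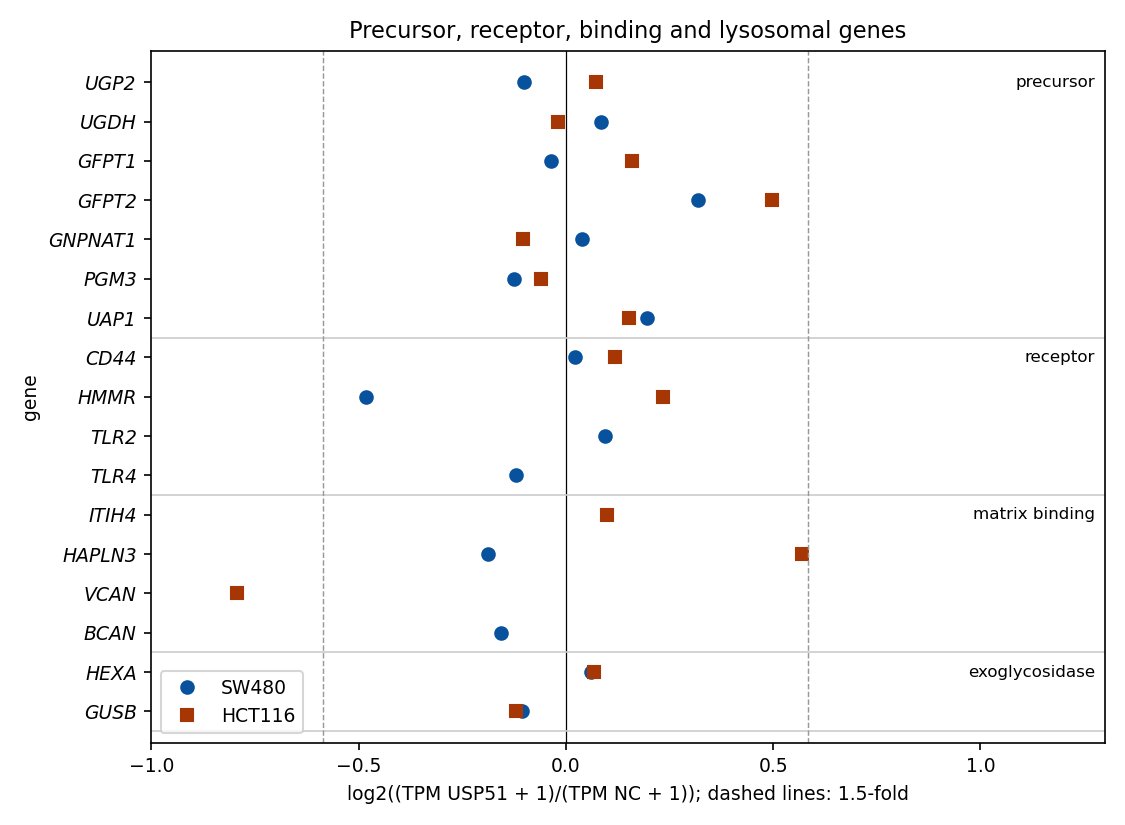
Log2 ratio of TPM + 1 with USP51 in SW480 (blue circles) and HCT116 (orange squares) for the precursor, receptor, matrix-binding and lysosomal genes with at least 1 TPM in a group of that line, with dashed lines at 1.5-fold. VCAN in HCT116, at -0.79, is the point beyond the lines.

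Of 9200 other genes with at least 10 TPM in any group, those whose log2(TPM + 1) profile over the 4 group means was nearest to HAS3 were DPEP1, HS3ST1, TMEM200A, KHDC1 and MGST1. Nearness was the Euclidean distance between profiles centred on their own means, which was 0.273 for DPEP1 and 0.515 to 0.573 for the next 4, against a median of 3.35 over all candidates. DPEP1, a membrane dipeptidase gene, was at 0.293, 0.477, 18.5 and 8.84 TPM in SW480 NC, SW480 USP51, HCT116 NC and HCT116 USP51. Its log2(TPM + 1) difference was 0.19 in SW480 and -0.99 in HCT116. Both SW480 means of DPEP1 were below 1 TPM, so the 0.19 is a value without the filter. All 4 of its rows are predicted, so that it has no value over curated rows. HS3ST1, which encodes a heparan sulfate sulfotransferase, was at 0.537, 0.473, 20.7 and 12.4 TPM. TMEM200A was at 0.197, 0.14, 14.0 and 9.34 TPM and KHDC1 at 0.0367, 0.173, 11.9 and 9.60 TPM. MGST1, a microsomal glutathione transferase gene, was at 36.6, 38.8, 402 and 321 TPM. With 4 points per profile, of which the difference between the lines makes up most, this is a description of levels only.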

How the data were processed

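Total RNA of 12 libraries was sequenced on a BGISEQ500 platform, per the labels' protocols. TopHat, DESeq 1.32.0 and the build hg38 are named in the submitters' processing notes, and the counting tool is not stated. The table holds 84345 RefSeq transcript rows. The authors' group means were used in 3 deposited units: estimated counts, not divided by depth; TPM, scaled by the authors to a fixed total; and FPKM, scaled by the authors to length and depth, per the file headers. The 36 single-library columns were not used, and no column could be mapped to a replicate.

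Rows were summed per gene and named through the RefSeq table of GRCh38.p14, where 17672 of 17818 identifiers had a symbol. Log2 ratios used a pseudocount of 1 TPM and genes with at least 1 TPM in either group. Since only means were mapped, the edgeR test foreseen for single libraries was not run. Count ratios have 95% Clopper-Pearson intervals (scipy 1.17.1) on rounded means. They were checked on gene counts simulated with counting error alone, for genes without low counts. That check does not cover transcript rows, low counts or the spread between libraries. PCR copies are not independent molecules, so the intervals cover counting error only. edgeR 4.0.16 gave scaling factors for alternatives. Named genes were the 7 members, USP51, listed related genes beyond 1.5-fold, CD44, HMMR, UGDH, UGP2 and the 5 genes nearest HAS3. COL1A1, EPCAM and other markers came from a marker list, and genes overlapping the members from RefSeq. One gene of the related lists is not reported here and is left out of their counts. The members and lists were chosen with earlier results of these data known.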

Additional observations from a re-analysis of the deposited data

How the results depend on the processing

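HAS3 in HCT116 kept its direction and stayed beyond 1.5-fold under all 8 alternatives, with log2 differences of -1.01 to -0.90. Leaving out the filter, among these, cannot change the value of a gene that passed it. With curated transcript rows alone, its log2 difference was -0.32 in SW480, 2.13 between the control groups and -0.57 between the lines. The last took the count of members at least 1.5-fold lower in HCT116 relative to SW480 from 1 to 0. This alternative drops the predicted rows, which held most HAS3 counts. With a pseudocount of 0.1 TPM the difference between control groups was 4.29. In SW480, 1 member, HAS3, was at least 1.5-fold higher with that pseudocount and with CPM under each scaling (none, TMM, RLE, upper quartile), and 1, HYAL1, at least 1.5-fold lower (-0.90) with curated rows. Between the lines, 2 members were at least 1.5-fold higher with a pseudocount of 0.1 TPM and 0 with FPKM or CPM. RLE factors moved the median of all genes between the lines by -0.10.

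Without the filter, HAS2 in HCT116 had a log2 difference of 0.14. Of 208 values of members under alternatives, 199 had the sign of the reported value. Some of the 208 could not differ from it. Leaving out the filter returns the same value for every member that passed it, and curated rows do so for HAS2 and HYAL3. Counts of all genes beyond 1.5-fold, higher and lower, were 53 and 62 with FPKM in SW480, 83 and 165 with curated rows, 106 and 91 with RLE factors, 102 and 95 with TMM factors, and 150 and 225 with a pseudocount of 0.1 TPM. In HCT116 they were 243 and 18 as reported, 146 and 16 with FPKM, 302 and 54 with curated rows, and 501 and 51 with a pseudocount of 0.1 TPM. For the lines' difference they were 448 and 52 as reported, 263 and 58 with FPKM, 571 and 117 with curated rows, 334 and 84 with TMM factors, 331 and 85 with RLE factors, 594 and 85 without a filter, and 672 and 92 with a pseudocount of 0.1 TPM. No paired analysis was possible because the columns that could be used are group means and carry no replicate number, and leaving out replicates was not run for the same reason.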
